A study of Camelina sativa with 12 samples.

Results

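The dormancy and auxin associated genes of Camelina sativa, an oilseed related to Arabidopsis, were examined in roots and shoots with and without salt. The study annotated these genes, which were taken here by gene ID and made up 5 of the 49932 genes in the table. The 3 genes for Dormancy-Associated Protein-like 1 (DYL1) are Csa03g031630, Csa14g035950 and Csa17g039180, which their IDs place on chromosomes 3, 14 and 17. The other 2, Csa16g007290 and Csa05g021450 on chromosomes 16 and 5, are annotated as encoding dormancy/auxin associated family proteins and are called the pair below. All 5 passed the filter on low values.

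DYL1 and its relatives encode small plant proteins whose biochemical function is not well understood. In Arabidopsis, DYL1 is also known as DRM1, and its transcript is abundant in dormant axillary buds and falls when the buds grow out. In strawberry, a related gene was described as repressed by auxin, the hormone that promotes cell elongation and patterns root and shoot growth. Transcripts of this family are therefore used as markers of tissue that is not growing.

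Plants of the doubled haploid line DH55 were sampled 28 days after planting. Control plants received no salt, while for salt-treated plants tap water was replaced by NaCl at 192 mM (15 dSm-1), stated as over the last 21 days. The study's account of plant growth starts the salt later than this, so the time under salt is uncertain. Roots and shoots were sequenced separately in 3 biological replicates per group, which gave 12 libraries in 4 groups. The labels name no genetic change in any group, and do not say whether a replicate was 1 plant or a pool.

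The values are CPM (counts scaled to library size, then normalized further by the authors). They were rounded, and a difference of 1 CPM is the finest that can be seen. Library totals were 882288 to 938888 in the 6 root libraries and 1077479 to 1117956 in the 6 shoot libraries, and the number of reads behind them is unknown. The organ labels were checked with marker genes. Summed over 6 photosynthesis genes (3 for the rubisco small chain and 3 for chlorophyll-binding proteins), control shoots held 18083 to 19923 CPM and control roots 12 to 29 CPM. EIR1 (Csa11g090640), a root auxin transporter, stood at 11 to 18 CPM in control roots and at 1 CPM in each control shoot library. In such bulk samples, fewer cells of a type and less RNA per cell cannot be told apart.

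All 5 genes were higher with salt in both organs, and all 5 were higher in roots than in shoots in both treatments. The study named them as up-regulated in both organs from these same libraries, so the rise itself is described here and is not independent evidence. On the log2 scale the pair rose more in shoots than in roots, and this difference between the organs passed the test. For Csa05g021450 it no longer passed the limit of 1 after quantile normalization. In CPM both genes of the pair gained more in roots. The organ comparison and the difference in salt effect were not part of the study's statement.

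The DYL1 gene Csa03g031630 stood at 70, 116 and 107 CPM in control roots (replicates 1 to 3). Salt-treated roots had 490, 295 and 317 CPM of it. Its shoot values were 12, 17 and 16 CPM in controls and 114, 84 and 73 CPM with salt. Every salt-treated library thus lay above every control library of its organ, and the salt-treated shoots came up to the range of the control roots. The log2 change was 1.90 in roots (standard error 0.25, adjusted p = 9.53e-05) and 2.54 in shoots (standard error 0.25, adjusted p = 9.32e-06; limma, Benjamini-Hochberg over 49928 genes).

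Csa14g035950, the second DYL1 gene, was at 40, 71 and 61 CPM in control roots, and salt raised it to 355, 182 and 214 CPM there. In shoots it went from 4, 6 and 6 CPM to 56, 35 and 39 CPM. The control shoot values are only a few rounding steps, which limits the precision of a ratio to them. Salt and control libraries did not overlap in either organ. Its log2 change was 2.10 in roots (standard error 0.28, adjusted p = 0.000129) and 2.90 in shoots (standard error 0.28, adjusted p = 9.96e-06), the largest shoot change of the 3 DYL1 genes.

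For Csa17g039180 the values were 37, 63 and 54 CPM in control roots against 277, 169 and 161 CPM with salt. Shoots held 5, 9 and 8 CPM without salt and 41, 38 and 28 CPM with it. Again no salt-treated library of an organ reached down to its controls. The log2 change was 1.96 in roots and 2.23 in shoots (standard error 0.27 for both, adjusted p = 0.000157 and 4.76e-05), so this copy had the most similar changes in the 2 organs.

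Csa16g007290 of the pair showed the largest change on the log2 scale in each organ. Control roots were at 44, 77 and 47 CPM, against 491, 237 and 246 CPM in the salt-treated ones. Control shoots were at 3, 6 and 5 CPM, close to the limit set by rounding, and salt-treated shoots at 117, 91 and 88 CPM. In shoots the group means, 4.67 ± 1.53 and 98.7 ± 15.9 CPM (SD, n = 3), stood 21.1-fold apart, against 5.80-fold in roots. The log2 change was 4.30 in shoots (standard error 0.31, adjusted p = 1.41e-06), which ranked 214 among 49928 genes, and 2.49 in roots (standard error 0.31, adjusted p = 8.16e-05).

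Its partner Csa05g021450 was the most even between replicates in shoots. Its values were 13, 14 and 14 CPM in control shoots and 167, 152 and 147 CPM in salt-treated shoots. Roots held 79, 110 and 79 CPM without salt and 530, 309 and 405 CPM with it. Again the groups did not overlap. The log2 change was 3.46 in shoots (standard error 0.18, adjusted p = 1.50e-07) and 2.19 in roots (standard error 0.18, adjusted p = 4.20e-06).

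**Figure D1:**
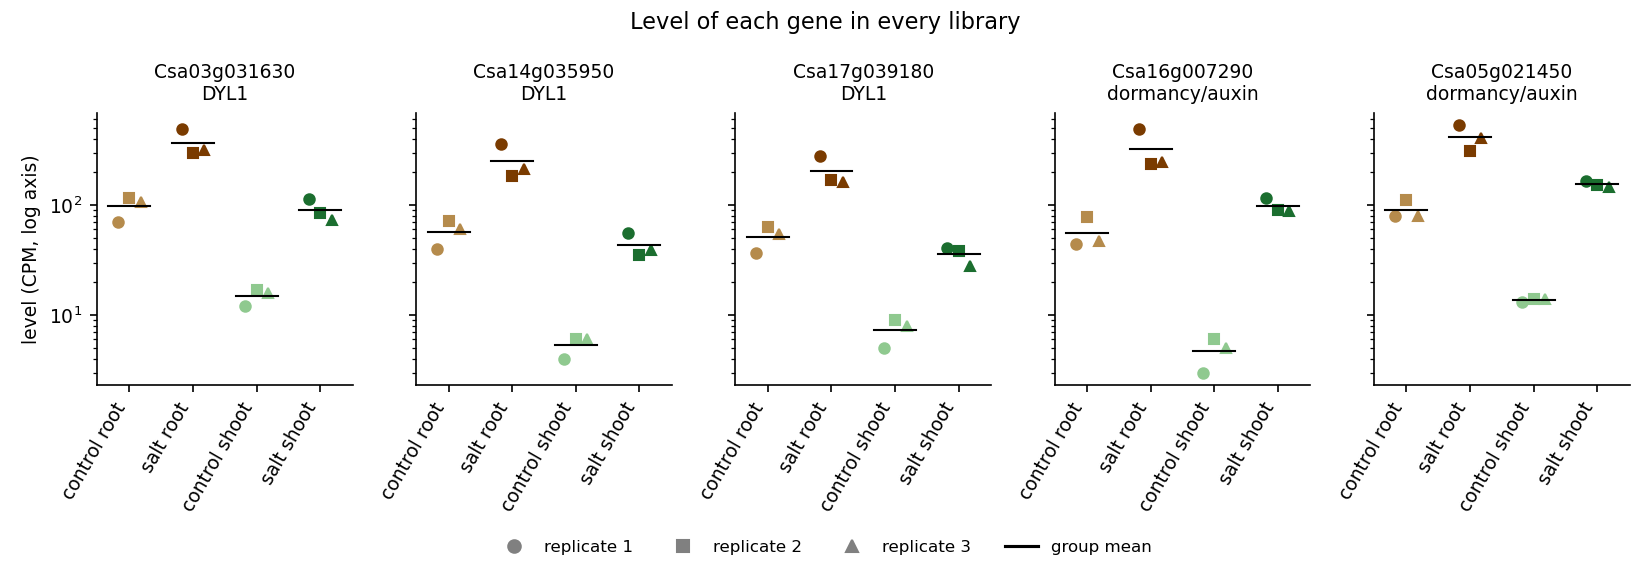
Level of each of the 5 genes in every library, in CPM on a log axis, with 1 panel per gene, 1 symbol per replicate and a line at the group mean. In each panel the 3 control shoot libraries are the lowest and the 3 salt-treated root libraries the highest, and replicate 1 is the highest of the salt-treated root libraries.

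A gene was called up-regulated at an adjusted p of at most 0.05 and a log2 change above 1. By this rule 5 of 5 genes were called in roots, where 8.22% of all genes tested were called up-regulated, and 5 of 5 in shoots, where 10.8% were. In roots, 25.3% of all genes tested had every salt-treated library above every control. In shoots the figure was 25.2%, and 5 of 5 of the genes described here had this in each organ. The median log2 change of the 5 genes was 2.10 in roots and 2.90 in shoots, beside a median of 0 over all genes in each organ. Because the study had picked the genes on these libraries, nothing is read from these counts. In roots the 5 changes lay above those of 97.4% to 98.7% of genes, and in shoots above 96.9% to 99.6%.

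**Figure D2:**
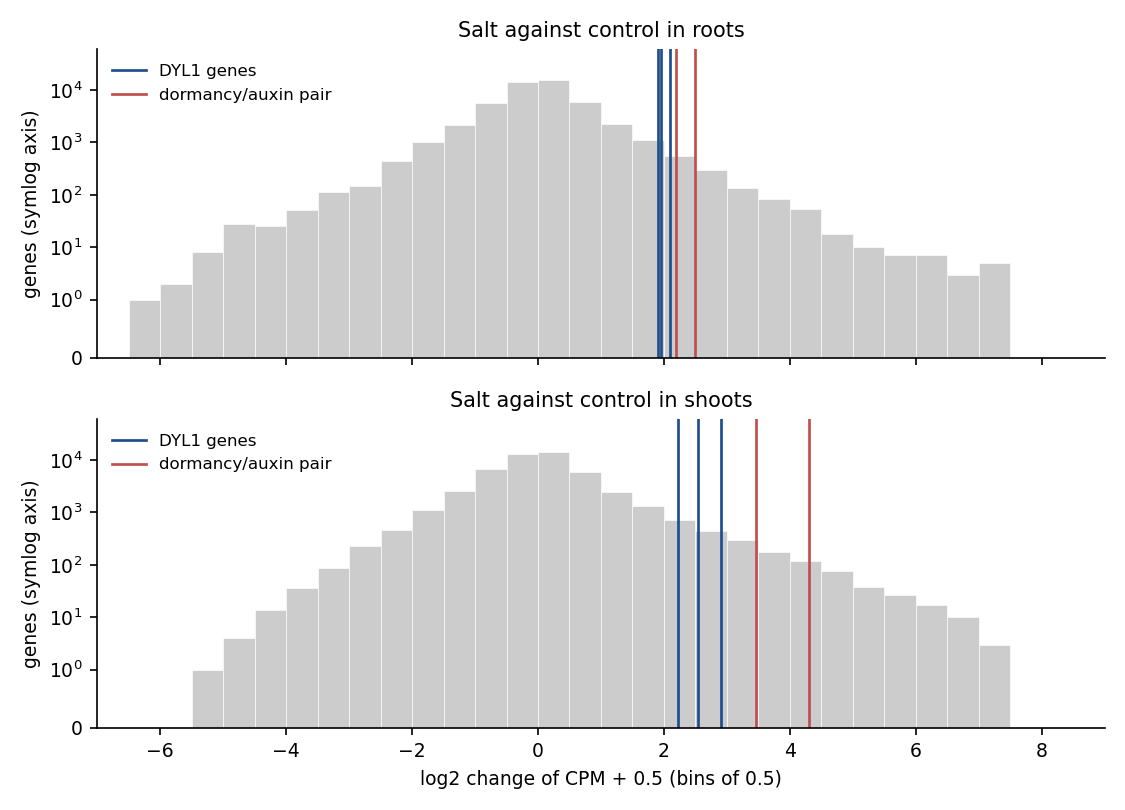
Number of genes tested (symmetric log axis) in bins of log2 change between salt and control, in roots (upper panel) and shoots (lower panel), with lines at the 3 DYL1 genes and at the pair. In roots the 5 lines lie together between 1.90 and 2.49, and in shoots the pair, at 3.46 and 4.30, stands to the right of the DYL1 genes.

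Whether salt acted differently in roots and shoots was tested as an interaction, the log2 change in roots minus that in shoots. Both genes of the pair passed. For Csa16g007290 the difference was -1.81 (95% interval -2.79 to -0.84, adjusted p = 0.0131), and for Csa05g021450 it was -1.27 (95% interval -1.82 to -0.72, adjusted p = 0.00447). A higher log2 change in shoots was called for 6.25% of all genes tested. After quantile normalization the difference for Csa05g021450 was -0.95, which no longer exceeded the limit of 1 (adjusted p = 0.0141). The controls of Csa16g007290 in shoots were 3 to 6 CPM, and its difference ranged from -2.15 (without salt root replicate 1) to -1.55 (without control shoot replicate 1) when 1 library was left out.

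None of the 3 DYL1 genes passed the interaction test. Their differences were -0.64 for Csa03g031630 (95% interval -1.40 to 0.12, adjusted p = 0.211), -0.80 for Csa14g035950 (95% interval -1.68 to 0.07, adjusted p = 0.172) and -0.27 for Csa17g039180 (95% interval -1.11 to 0.57, adjusted p = 0.658). All 3 point the same way as in the pair. The intervals include no difference as well as larger shoot changes of more than 1 on the log2 scale, so equal changes in the 2 organs are not shown.

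**Figure D3:**
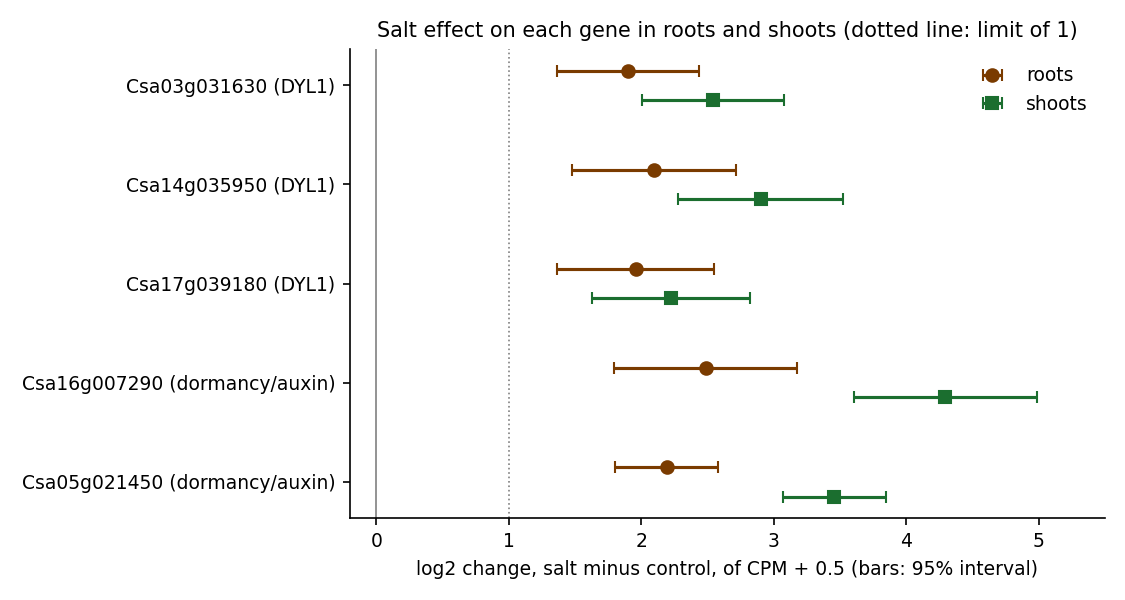
Log2 change between salt and control (horizontal axis, CPM + 0.5) of each gene in roots (circles) and shoots (squares), with 95% intervals from limma and a dotted line at the limit of 1. The root and shoot intervals of the 3 DYL1 genes overlap, while for Csa16g007290 the root interval ends at 3.17 and the shoot interval starts at 3.61, and for Csa05g021450 they are 1.80 to 2.58 and 3.07 to 3.85.

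The 5 genes were root-biased. Without salt, mean levels in roots were 6.51 times those in shoots for Csa03g031630, 10.8 times for Csa14g035950, 7.00 times for Csa17g039180, 12 times for Csa16g007290 and 6.54 times for Csa05g021450. The log2 differences of shoots from roots were -3.45 to -2.64, and all 5 were called (adjusted p from 9.75e-08 to 3.52e-06), where 15.3% of the genes tested were called lower in shoots. No control shoot library reached the lowest control root library for any of the 5 genes, as for 35.3% of the genes tested.

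Under salt the roots still held more. The ratios of the means were 4.07, 5.78 and 5.67 for the DYL1 genes (in the order given above), and 3.29 for Csa16g007290 and 2.67 for Csa05g021450. All 5 genes were again called lower in shoots (log2 differences -2.49 to -1.38, adjusted p from 8.92e-06 to 0.000731), beside 14.7% of the genes tested. Salt-treated shoot libraries lay below all salt-treated root libraries for 29.8% of the genes tested and for all 5 of these. In CPM the gain was larger in roots for each gene: the mean of Csa16g007290, for example, gained 268.7 CPM in roots and 94.0 CPM in shoots, although its fold change was larger in shoots. Csa05g021450 gained 325.3 CPM in roots and 141.7 CPM in shoots.

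The 4 groups thus had nearly the same order for each gene, with control shoots lowest and salt-treated roots highest. Control roots and salt-treated shoots lay between them, and these neighbours were compared by a contrast chosen after the values had been seen. For the DYL1 genes their libraries overlapped, with log2 differences of salt-treated shoots from control roots of -0.10 for Csa03g031630 (95% interval -0.64 to 0.43, adjusted p = 0.722), -0.39 for Csa14g035950 (95% interval -1.01 to 0.23, adjusted p = 0.243) and -0.50 for Csa17g039180 (95% interval -1.10 to 0.09, adjusted p = 0.121). For the pair, all salt-treated shoots lay above all control roots, as for 31.6% of the genes tested. The differences were 0.85 for Csa16g007290 (adjusted p = 0.0319) and 0.81 for Csa05g021450 (adjusted p = 0.00163), under the limit of 1, so neither was called higher, beside 20.7% of the genes tested. Without control root replicate 2, which had the highest control root value of both genes, the difference was 1.10 for Csa16g007290 (adjusted p = 0.0135), past the limit. The adjusted p of this gene rose above 0.05 without control root replicate 1 (0.70, adjusted p = 0.116), without control root replicate 3 (0.74, adjusted p = 0.103), without any 1 of the salt shoot replicates (0.72 to 0.92, adjusted p = 0.0501 to 0.11) and after quantile normalization (0.57, adjusted p = 0.113).

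C. sativa has a triplicated genome, and the 3 DYL1 genes are on different chromosomes. The sources used here do not say how reads matching more than 1 copy were assigned. Counts of near-identical copies may therefore have been split between them. Gene lengths were not used, so a share below shows how the balance moves between groups and not which copy is the more active per length.

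In control roots Csa03g031630 took 47.6, 46.4 and 48.2% of the CPM of the 3 DYL1 genes. Its share was 43.7, 45.7 and 45.8% in salt-treated roots, 57.1, 53.1 and 53.3% in control shoots and 54.0, 53.5 and 52.1% in salt-treated shoots. All shoot libraries thus lay above all root libraries of the same treatment, by 7.13 percentage points without salt and 8.18 with salt on average. Csa14g035950 was the reverse, with 27.7 ± 0.624% in control roots and 19.3 ± 0.653% in control shoots (SD, n = 3), and it rose to 25.6 ± 2.91% in salt-treated shoots. Csa17g039180 kept 21.2 to 26.2% on average, with overlapping libraries in each of its 4 comparisons. A control shoot share rests on sums of 21 to 32 CPM, where a rounding step of 1 CPM moves a share by several percentage points.

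Within the pair, Csa16g007290 supplied 18.8, 30 and 26.3% of the CPM in control shoots and 41.2, 37.4 and 37.4% in salt-treated shoots. The groups did not overlap, and their means differed by 13.7 percentage points. The control shoot sums of the pair were only 16 to 20 CPM, where a rounding step moves a share by several percentage points. In roots the shares were 38.1 ± 2.79% without salt and 43.1 ± 5.16% with salt (SD, n = 3), and the libraries overlapped. Salt-treated shoots thus had a share near that of control roots.

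The balance between the 2 kinds of gene moved as well. The summed CPM of the pair divided by that of the DYL1 genes was 0.762, 0.625 and 0.633 in control shoots and 1.35, 1.55 and 1.68 in salt-treated shoots. It was 0.837, 0.748 and 0.568 in control roots and 0.910, 0.845 and 0.941 in salt-treated roots. Salt-treated libraries lay above the controls in both organs, by a mean of 0.851 in shoots and 0.181 in roots, and salt-treated shoots lay above salt-treated roots by 0.625. In roots the separation was narrow, with 0.837 in the highest control and 0.845 in the lowest salt-treated library. Control roots and control shoots overlapped. This ratio was chosen after the values had been seen.

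For these shares and ratios, 20 comparisons between groups were made with a two-sided exact permutation test over 3 libraries against 3, in which the smallest p possible is 0.1. The 11 comparisons without overlap reached that value (adjusted p = 0.182), and the other 9 had p from 0.2 to 0.8. This test can thus not bring any of them under 0.05 with 3 libraries a group.

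**Figure D4:**
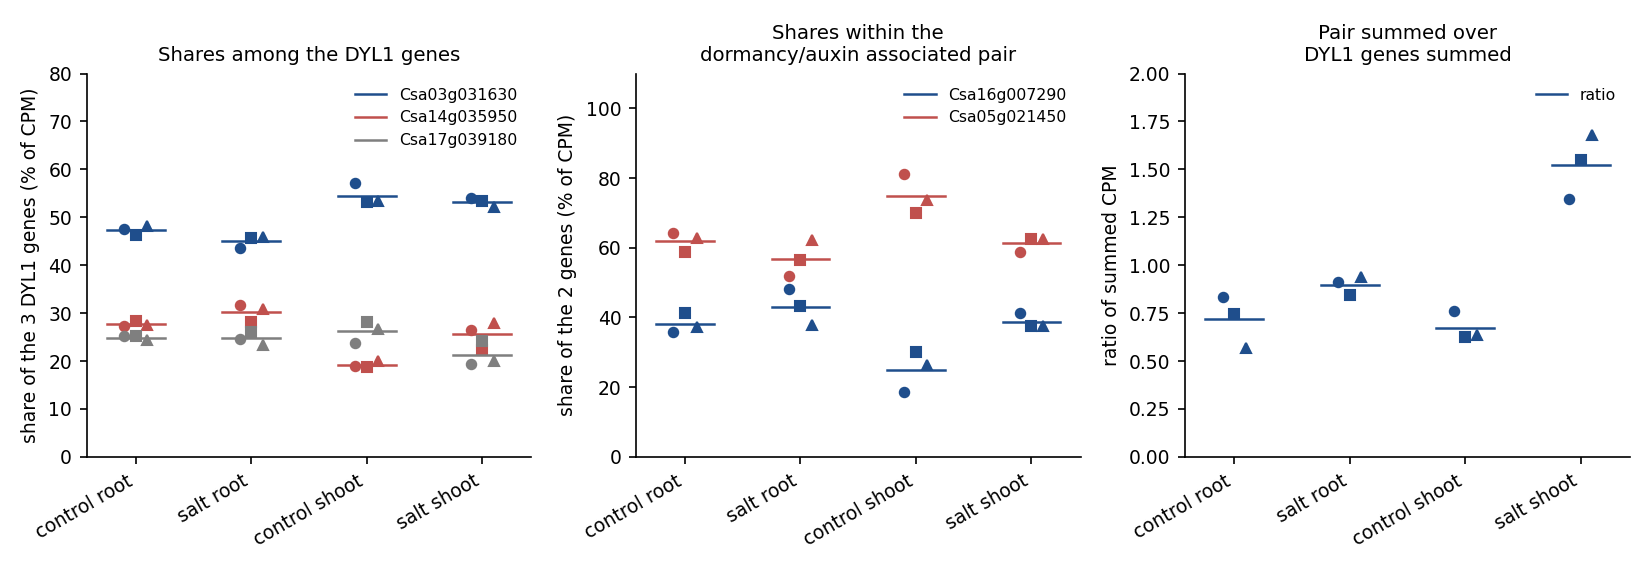
Share of each gene in the CPM of the 3 DYL1 genes (left), share of each gene in the CPM of the pair (middle) and ratio of the summed pair to the summed DYL1 genes (right), by group, with 1 symbol per replicate and lines at the group means. The ratio is 1.35 to 1.68 in salt-treated shoots and 0.568 to 0.941 in the other 9 libraries.

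The genes also varied together between replicates. Salt root replicate 1 had the highest value of its group for all 5 genes, on average 0.52 above the group mean on the log2 scale, and control shoot replicate 1 the lowest for all 5, on average -0.34. Control root replicate 2 and salt shoot replicate 1 were the highest of their groups for all 5 genes. Pearson's r between 2 of the genes, computed on log2 values after subtracting the group means, was 0.696 to 0.963 over the 12 libraries for the 10 pairs of genes. Among the DYL1 genes it was 0.876 to 0.963, and 0.846 between the genes of the pair. These are descriptions, since values from the same library share its RNA and its scaling, and copies may share reads.

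The same salt-treated root library stood apart in the shoot markers. The 6 photosynthesis genes, as used above to check the organs, summed to 201 CPM in salt root replicate 1. They summed to 75 and 112 CPM in replicates 2 and 3, against 12 to 29 CPM in control roots. In roots 4 of the 6 were called up-regulated, beside 8.22% of all genes tested. Of the 6, CAB1 (Csa14g037480) and LHB1B1 (Csa06g036870), both for chlorophyll a/b-binding proteins, were at 0 in every root library. They averaged only 6.67 and 9.67 CPM in salt-treated shoots, so root levels at the shares given next would round to 0. In salt-treated roots the rubisco small chain genes stood at 0.616 to 2.23% of their mean level in salt-treated shoots, and the third chlorophyll-binding gene, Csa06g008820, at 4.58% (4 against 87.3 CPM). The part of these markers in the rise of the 5 genes in roots was not tested. Without salt root replicate 1, the log2 changes in roots were 1.67 to 2.14 and all 5 genes were still called. In shoots the same sum fell from 18083 to 19923 CPM in controls to 9658 to 12169 CPM with salt. Most of it came from the rubisco small chain genes, none of which was called there. Of the 6 genes, 2 (CAB1 and LHB1B1) were called down-regulated, beside 8.87% of all genes tested. Csa06g008820 had a higher mean with salt (60.3 CPM in controls, 87.3 CPM with salt) and was not called. The part of this sum in the rise of the 5 genes in shoots was not tested.

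The other auxin genes that the study named or listed did not move as 1 group. They were taken from what the study named or listed as changed in these libraries: the IAA synthesis genes as up-regulated in both organs, EIR1 and WAG1 as down-regulated in roots, and most of the others as changed in shoots. Their counts in those organs therefore restate how they were chosen and are not independent evidence. Genes for synthesis of the auxin indole acetic acid (IAA) were the nearest in pattern. Of all genes tested 8.22% were called up-regulated in roots and 10.8% in shoots, and 3 of 3 IAA synthesis genes were in both organs. Their median log2 change was 2.83 in roots and 3.13 in shoots. Csa17g070920 of these went from 1, 2 and 1 to 8, 6 and 7 CPM in roots, and from 1, 2 and 2 to 25, 9 and 31 CPM in shoots. Csa03g046940 had 3, 4 and 3 CPM in control roots and 3, 5 and 5 CPM in control shoots, and reached 31, 24 and 25 CPM and 55, 18 and 56 CPM with salt. Csa14g049310 went from 0, 1 and 0 to 12, 8 and 8 CPM in roots and from 1, 4 and 2 to 31, 10 and 34 CPM in shoots. None of the 3 was called lower in shoots than in roots without salt, as the 5 dormancy and auxin associated genes were, and Csa14g049310 was called higher there (log2 difference 1.83, adjusted p = 0.0128). That call rests on 0, 1 and 0 CPM in control roots against 1, 4 and 2 CPM in control shoots, which overlap. In salt-treated shoots replicate 2 was far lower than the other 2 libraries for these 3 genes. The 5 dormancy and auxin associated genes did not share this pattern, but several genes described below did.

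Of the auxin transport genes, those called fell. In roots 2 of 3 were down-regulated (7.85% of all genes tested were). WAG1 (Csa17g094210), a kinase that acts on polar auxin transport, went from 4, 4 and 6 to 0, 0 and 1 CPM, and EIR1 fell from 11, 13 and 18 to 4 CPM in each library. In shoots 1 of 3 was down-regulated (8.87% of all genes tested were), namely LAX1 (Csa08g062880), an auxin transporter-like protein, which went from 19, 17 and 19 to 4, 5 and 6 CPM (log2 change -1.79, adjusted p = 6.46e-06).

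Genes of auxin response and of IAA conjugates split by family. For the counts that follow, 10.8% of all genes tested were up-regulated and 8.87% down-regulated in shoots, and 8.22% were up-regulated in roots. The SAUR-like genes, small transcripts that auxin induces within minutes, had 5 of 7 down-regulated and 2 of 7 up-regulated in shoots, and 1 of 7 up-regulated in roots. That one, Csa11g001760, stood at 1, 1 and 0 CPM in salt-treated roots against 0 in each control, so the groups overlapped. Csa12g001660, which had the largest fall in shoots, went from 32, 36 and 33 to 8, 11 and 7 CPM there and was at 0 in every root library. Enzymes of the GH3 family, several of which join IAA to amino acids, were up-regulated for 5 of 6 genes in shoots and for 0 of 6 in roots by limma, where 0 of them were at an unadjusted p under 0.05. Csa03g053580 of this family was listed at 0 in all 9 other libraries and at 10, 3 and 12 CPM in salt-treated shoots, and GH3.5 (Csa12g024660) went from 2, 1 and 1 to 8, 6 and 13 CPM in shoots and was at 6 to 10 CPM in all root libraries. Hydrolases that release IAA from such conjugates (IAR3 and ILR1) were up-regulated for 4 of 4 genes in shoots and 1 of 4 in roots. ILR1 (Csa15g002570) went from 2, 3 and 3 to 24, 10 and 24 CPM in shoots. By the interaction test the salt effect was larger in shoots for 5 of 6 GH3 genes and 3 of 4 hydrolase genes, beside 6.25% of all genes tested. Since these genes were listed for their change in shoots, that choice favours such a difference and nothing is read from it. The other 8 IDs of these lists are not analysed here.

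**Figure D5:**
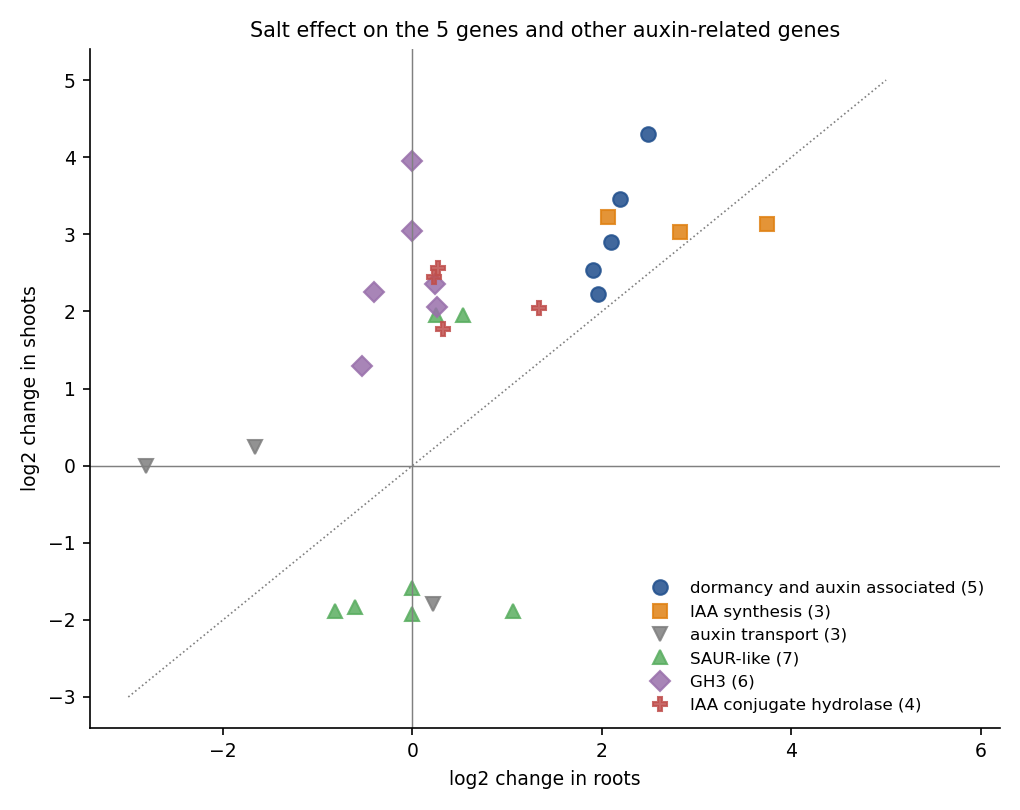
Log2 change between salt and control in roots (horizontal axis) and shoots (vertical axis) of the 5 dormancy and auxin associated genes and of 23 other auxin-related genes, with a dotted line where both are equal. The 5 genes and the 3 IAA synthesis genes lie in the upper right, GH3 genes lie near 0 in roots and above 0 in shoots, and the 3 transport genes lie below 0 in the organ where they were called.

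Named beside DYL1 under development were RD26, a NAC transcription factor, and SAG29, a sugar transporter of senescing tissue. The 3 RD26 genes rose in both organs, with log2 changes of 3.67 to 4.53 in roots and 4.90 to 5.39 in shoots. They started from 0 to 2 CPM in every control library, whereas the dormancy and auxin associated genes were already at 37 to 116 CPM in control roots. SAG29 (Csa20g018520) was listed at 0 in all 6 controls and at 33, 10 and 41 CPM in salt-treated shoots, while in roots it had 2, 1 and 0 CPM with salt and was not called. The other SAG29 gene, Csa13g015780, was called in both organs, from 0 in all 6 controls to 1 CPM in each salt-treated root library and to 8, 3 and 12 CPM in salt-treated shoots. As for the IAA synthesis genes, replicate 2 was the lowest salt-treated shoot library for every RD26, SAG29, GH3 and conjugate hydrolase gene analysed.

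Genes with a similar profile were sought among the 12281 other genes with a mean of at least 20 CPM, by Pearson's r of log2 values over the 12 libraries with the mean standardised profile of each set. The likeness does not weigh how large a change is. For the DYL1 genes 313 genes had r of at least 0.95, and for the pair 291. With Spearman's rho in place of r these counts were 72 and 243. The most similar was Csa01g022250 for DYL1 (r = 0.991), which moved far less (means of 29 and 37 CPM in control and salt-treated roots, 19 and 26.7 CPM in shoots), and Csa02g073190 for the pair (r = 0.993, means of 19.3 and 50.3 CPM in roots and 4.33 and 25.3 CPM in shoots). The files used here pair neither ID with a name.

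Among genes that the study names, methyl esterase 6 (Csa09g087810) was the nearest to both sets, at rank 21 for DYL1 (r = 0.983) and rank 15 for the pair (r = 0.987). Next came a glycolate oxidase gene (Csa10g026850, r = 0.975) for DYL1 and RELA/SPOT homolog 2 (Csa15g018330, r = 0.982) for the pair. Csa15g018330 was also near to DYL1 (r = 0.974), and a heat shock protein gene (Csa18g023590, r = 0.970) was near to the pair. The points share libraries and the 4 groups, so such values describe the order of the groups more than the replicates.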

How the data were processed

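Stranded libraries of root and shoot mRNA were sequenced on an Illumina HiSeq instrument, with 3 biological replicates in each of 4 groups. The authors used Trimmomatic for trimming and STAR for mapping against the genome of C. sativa with NCBI transcripts. They divided counts by library size and normalized further with DESeq, in versions that the sources used here do not give. What was deposited is such a score, that is, a CPM value after rounding. They are not counts, so count models were not used and no counting interval is given.

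A pseudocount of 0.5 was added, log2 was taken, and a limma 3.58.1 model (R 4.3.3) was fitted to the 49928 genes that reached 1 in 3 or more libraries, with 4 groups sharing the spread of all 12 libraries and a trend in the prior variance. Benjamini-Hochberg adjustment ran over these genes. Exact permutation tests used SciPy 1.17.1. A call required a log2 change beyond 1 in size and an adjusted p no larger than 0.05, the limits of the study. No block was used.

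Same-numbered salt-treated root and shoot libraries deviated together over 12286 genes (r of their deviations 0.283, 0.399 and 0.144), which comes from the data and is not stated in the labels. For control roots and shoots (0.122, 0.0532 and 0.251) and between treatments not every value exceeded 0.1. Alternatives changed the pseudocount, filter, scaling, variance model, block and libraries.

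The genes, lists and rules were chosen with earlier results of these data known. Named were the 5 genes, listed auxin and development genes past a limit (at most 4 per list), and for each set the most similar gene and up to 3 that the study names. Of the most similar genes without a name, 1 per set is printed. Gene names are those of the study. Beside the 8 listed IDs that are not analysed here, 1 further auxin gene is not reported.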

Additional observations from a re-analysis of the deposited data

Results flagged for a closer look

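The salt effect of both genes of the pair differed between roots and shoots by the interaction test (limma). For Csa16g007290 the log2 change in roots minus that in shoots was -1.81 (adjusted p = 0.0131), with root changes of 2.49 and shoot changes of 4.30. For Csa05g021450 it was -1.27 (adjusted p = 0.00447), with 2.19 in roots and 3.46 in shoots. The control shoot levels, 3 to 6 CPM and 13 to 14 CPM, are the lowest of the 4 groups.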

How the results depend on the processing

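Across 21 alternatives, the salt changes of the 5 genes in each organ kept their direction and call in 210 of 210 values (highest adjusted p = 0.00789). The organ differences, with 21 alternatives without salt and 22 under salt, did so in 215 of 215 (highest adjusted p = 0.00961). For the interaction, with 20 alternatives, 99 of 100 values did. The exception was Csa05g021450 after quantile normalization (-0.95, adjusted p = 0.0141), and the cause was not tested. With 1 library left out, salt-treated shoots against control roots ranged from -0.33 to 0.036 for Csa03g031630, which changed sign without control root replicate 2 or salt shoot replicate 3 (0.036 in both), and from 0.70 to 1.10 for Csa16g007290, which passed the limit without control root replicate 2. The replicate block changed no call of the 5 genes (for Csa16g007290 the interaction stayed at -1.81), and neither did a block fitted to the salt-treated libraries alone, added after the data were seen. With that block the adjusted p of the 5 genes between salt-treated shoots and roots was 0.00119 to 0.00961. Counts over all genes stayed within 1.5 times. With Spearman's rho in place of Pearson's r, 72 genes in place of 313 had a likeness of at least 0.95 to DYL1, and 243 in place of 291 to the pair. The interaction needs all 4 groups, so a fit on fewer was not run. Rounding to 1 CPM limits the control shoot values, and the depth behind them is unknown.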
